A study of Mus musculus with 12 samples.

Results

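Ribosome biogenesis genes encode the proteins that transcribe, cut, modify and fold ribosomal RNA in the nucleolus and assemble it with ribosomal proteins, but they are not themselves part of the finished ribosome. Of 38 such genes, chosen by name for their known roles, 37 were measured here by a probe annotated to that gene alone, among 19938 genes on the arrays. The probe with the highest mean over the 12 arrays stood for a gene that had several. Noc2l, a partner of Noc3l in large subunit assembly, was not analysed here because no probe with exactly 1 gene carried its name.

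RNA polymerase I copies ribosomal DNA into a long precursor RNA, which small nucleolar ribonucleoproteins (snoRNPs) modify and a chain of assembly factors cleaves and packs into a small and a large subunit. The transcription factor Myc is a textbook activator of many of these genes and binds the E-box sequence CACGTG. Pluripotent cells divide fast, have prominent nucleoli and make ribosomes at a high rate.

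The cells were mouse epiblast stem cells (EpiSCs), pluripotent cells resembling the epiblast after implantation, of genetic background 129, although a description field of the same samples speaks of embryonic stem cells. Each of 4 groups had 3 Affymetrix arrays. The CHIR group received CHIR99021, an inhibitor of the kinase GSK3 that stabilises beta-catenin, at 3 µM for 2 h. The XAV group received XAV939, a tankyrase inhibitor that stabilises Axin and thereby lowers beta-catenin, at 2 µM. The CHIR + XAV group received both, and the NT group was untreated. For XAV939 the sample labels record 2 h and the design text 4 h, and nothing in the sources used here settles which applies. Every group, NT included, had first gone 12 h in medium described as serum-free, while the growth medium on record for all samples lists 10% serum. The labels name no separate cultures behind the 3 samples of a group, so the p-values below rest on a spread between samples that may be technical. Differences in RNA of a bulk culture cannot tell fewer cells of a type from less RNA per cell.

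Values are log2 expression as deposited, and a change is a difference between group means on that scale. Correlations between arrays lay between 0.990 and 0.995. The label was checked first. All 12 listed markers of EpiSCs had means above a background level of 4.94, the 95th percentile of 1194 olfactory and vomeronasal receptor genes, compared with 5 of 10 markers of naive pluripotency, 4 of 10 of fibroblast feeders, 4 of 8 of endoderm and 6 of 7 of neural cells. The mean over the fibroblast markers ranged over arrays from 4.90 to 4.95 in CHIR, 4.92 to 4.97 in XAV, 4.87 to 4.99 in CHIR + XAV and 4.97 to 5.07 in NT cells. For the naive markers these ranges were 5.29 to 5.38 in CHIR, 5.14 to 5.29 in XAV, 5.24 to 5.33 in CHIR + XAV and 5.20 to 5.26 in NT cells. For the endoderm markers they were 4.84 to 4.86 in CHIR, 4.87 to 4.92 in XAV, 4.85 on each array in CHIR + XAV and 4.89 to 4.96 in NT cells, so that every array with CHIR99021 was below every array without it. Sox17, a defining endoderm marker, had a mean of 4.23, under the background level. For the neural markers they were 5.68 to 5.84 in CHIR, 5.78 to 5.83 in XAV, 5.83 to 5.89 in CHIR + XAV and 5.83 to 5.87 in NT cells, and for the EpiSC markers 9.62 to 9.64 in CHIR, 9.67 to 9.75 in XAV, 9.59 to 9.68 in CHIR + XAV and 9.60 to 9.67 in NT cells. The part of these markers in the results below was not tested. Axin2, a direct target of beta-catenin, had 6.96, 7.03 and 7.02 in CHIR cells, 5.94, 5.55 and 5.68 in XAV cells, 6.48, 6.35 and 6.48 in CHIR + XAV cells, and 5.77, 6.04 and 6.03 in NT cells. Axin2 was called higher in CHIR than in NT cells, by 1.06 (SE 0.099, limma adjusted p = 4.83e-05), and Nodal, a ligand of the early embryo, by 1.76 (SE 0.091, limma adjusted p = 2.39e-08). Of 6 listed Wnt response genes, 5 were called higher in that comparison.

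The ribosome biogenesis genes were strongly expressed in all 4 groups, and no single one of them passed the test in any comparison. All 37 had means above the background level, from 7.25 for Nip7 to 12.2 for Npm1, and 35 of them lay in the top 2 of 10 equal bins of genes by mean brightness on the array. In CHIR against NT cells, 0 of 37 members were called at a limma adjusted p under 0.05, where 0.421% of all genes were called in either direction. At an unadjusted p under 0.05 there were 4 members, all higher in CHIR, beside 10.3% of all genes in either direction and 5.07% higher. The median member was 0.092 higher in CHIR than in NT cells, and 30 of 37 members (81.1%) had a change above 0, beside a median of -0.0053 and a share above 0 of 48.1% over all genes. Changes on these arrays varied with brightness, so genes within the members' range of means, called genes of like brightness, are given as a second background. The 5959 genes with means within the members' range had a median change of 0.037 in the same comparison, with 64.3% above 0 and 8.68% higher at an unadjusted p under 0.05. The members are among those 5959, whose median level of 8.69 was below the members' 9.98. Most members, 28 of 37, lay in the brightest of the 10 bins, where the median change of all genes was 0.031.

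**Figure D1:**
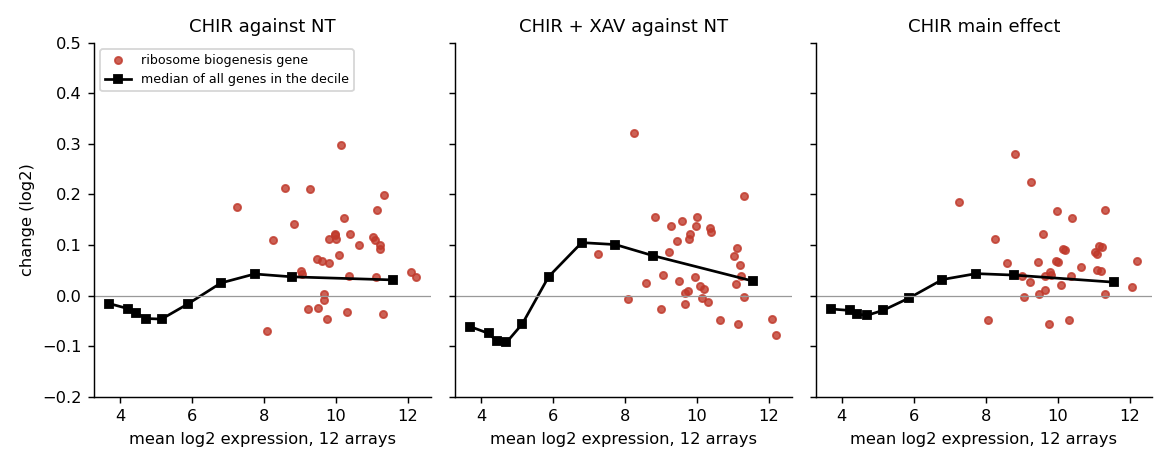
Change (log2) against mean log2 expression over 12 arrays for the 37 ribosome biogenesis genes (red points) in 3 comparisons, with the median change of all genes in each of 10 equal bins of mean expression (black squares joined by a line). In CHIR against NT most red points lie above the line, with a median member change of 0.092, while in CHIR + XAV against NT they lie on both sides of it, with a median of 0.039.

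CHIR + XAV against XAV gives the response to CHIR99021 on 6 other arrays. There the median member change was 0.029, with 26 of 37 members above 0, beside 48.6% of all genes. No member was called, where 0.236% of all genes were, and 5 members had an unadjusted p under 0.05, all higher, beside 9.69% of all genes in either direction and 4.92% higher. All 3 CHIR + XAV arrays lay above all 3 XAV arrays in 8 members, beside 6.94% of all genes, and below in 1, Ubtf, beside 7.32%. The 5959 genes of like brightness had a median of 0.031 there, close to that of the members. All genes in the brightest of the 10 bins, which held 28 members, had a median of 0.017. Of the 5959 genes of like brightness, 62.3% were above 0, beside 70.3% of members. At an unadjusted p under 0.05, 7.45% of these background genes were higher, beside 13.5% of members. Arrays of these background genes were separated upwards in 10.8%, beside 21.6% of members, and downwards in 4.88%, beside 2.70%. Members with a change above 0 in both CHIR against NT and CHIR + XAV against XAV numbered 22 of 37 (59.5%), beside 44.5% of the genes of like brightness and 27.7% of all genes. Members below 0 in both numbered 3, namely Ubtf, Polr1b and Rrp9.

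Taken over both backgrounds, the 6 arrays with CHIR99021 were set against the 6 without it, here called the CHIR main effect. No member was called, where 1.59% of all genes were, and 6 members had an unadjusted p under 0.05, all of them higher, beside 14.0% of all genes in either direction and 6.98% higher. Among genes of like brightness 12.5% were higher at that p, close to the 16.2% of members. The members' median was 0.065, with 33 of 37 above 0 (89.2%), beside 0.036 and 67.8% for the genes of like brightness and -0.0050 and 47.7% for all genes. After subtraction of the median change of genes in the same brightness bin, the members' median was 0.030 with 26 of 37 above 0. Between arrays of a group the median level over the members varied by an amount that gives the difference of 6 against 6 arrays an SD of 0.0363, and the difference of 3 against 3 an SD of 0.0513. The median level on an array is the level of the member that ranks in the middle there. That SD is therefore not the spread of the members' median change. The complete separation of arrays is a stricter description. In 5 members, Nop56, Utp15, Wdr43, Tsr1 and Gnl3, all 6 arrays with CHIR99021 lay above all 6 without it, which held for 0.782% of all genes and 1.75% of genes of like brightness. In 0 members did they lie below, which held for 0.848% of all genes and 0.856% of genes of like brightness.

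**Figure D2:**
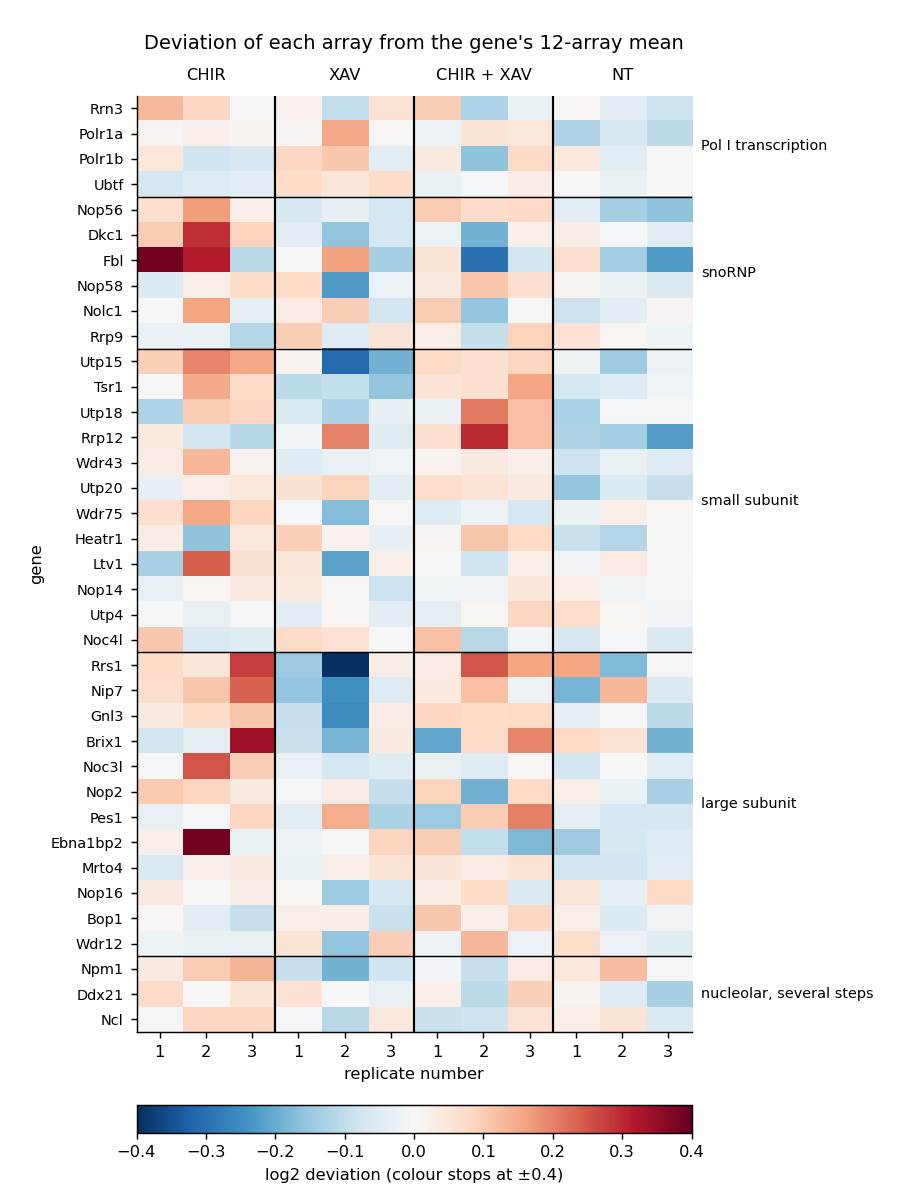
Deviation of each array (columns, 3 replicates in each of 4 groups) from the 12-array mean of the gene (rows, 37 genes grouped by role), in log2 units, red above and blue below the mean. CHIR and CHIR + XAV columns hold more red than XAV and NT columns, while single arrays reach both colours within 1 group, as in Rrs1, Fbl and Ebna1bp2.

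Array by array, the median deviation of the 37 members from their own means was 0.021, 0.048 and 0.037 in CHIR cells, -0.0049, -0.032 and -0.034 in XAV cells, 0.030, 0.020 and 0.057 in CHIR + XAV cells, and -0.0096, -0.030 and -0.047 in NT cells. The 6 arrays with CHIR99021 were thus all above 0 and the 6 others all below. Genes of like brightness had median deviations of -0.0087, 0.0066 and 0.0040 in CHIR cells, 0.021, -0.024 and 0.019 in XAV cells, 0.031, 0.023 and 0.045 in CHIR + XAV cells, and -0.0038, -0.038 and -0.065 in NT cells. In CHIR + XAV and NT cells those background genes therefore deviated by amounts close to those of the members, and in CHIR cells they lay between -0.0087 and 0.0066. Of the 37 members, 17 had their highest group mean in CHIR, 5 in XAV, 13 in CHIR + XAV and 2 in NT cells, and 5, 16, 2 and 14 had their lowest in those groups.

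The first step of the pathway, transcription by RNA polymerase I, was represented by 4 members, with CHIR99021 changes on both sides of 0. Polr1a, its largest catalytic subunit, had 9.82, 9.83 and 9.83 in CHIR cells, 9.82, 9.97 and 9.82 in XAV cells, 9.79, 9.87 and 9.86 in CHIR + XAV cells, and 9.69, 9.75 and 9.71 in NT cells. All arrays of each treated group lay above all NT arrays, with no order among the treated groups. The Polr1a change was 0.15 in XAV against NT (SE 0.069, limma adjusted p = 0.428), the smallest p of these 4 genes, and 0.11 in CHIR against NT (SE 0.069, limma adjusted p = 0.615). Ubtf, which binds ribosomal DNA and keeps it open for the polymerase, had 9.68, 9.70 and 9.70 in CHIR cells, 9.82, 9.80 and 9.82 in XAV cells, 9.72, 9.75 and 9.78 in CHIR + XAV cells, and 9.75, 9.72 and 9.75 in NT cells. The CHIR arrays of Ubtf were the lowest and the XAV arrays the highest, each without overlap with NT, yet its CHIR main effect was -0.056 (SE 0.045, limma adjusted p = 0.623). Polr1b, the other large subunit, averaged 10.28 ± 0.068 in CHIR, 10.36 ± 0.083 in XAV, 10.30 ± 0.13 in CHIR + XAV and 10.31 ± 0.043 in NT cells (SD, n = 3 each). Rrn3, the initiation factor that brings the polymerase to its promoter, averaged 11.15 ± 0.068 in CHIR, 11.07 ± 0.082 in XAV, 11.06 ± 0.11 in CHIR + XAV and 11.04 ± 0.047 in NT cells (SD, n = 3 each), and the groups overlapped. The median CHIR main effect of the 4 genes was -0.0034, with 2 above 0.

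Among the snoRNP proteins, Nop56 had the smallest p of all members in CHIR against NT. Nop56 and Nop58 are the paired scaffold proteins of box C/D snoRNPs, which guide methylation of ribosomal RNA. Nop56 had 11.39, 11.49 and 11.35 in CHIR cells, 11.26, 11.29 and 11.25 in XAV cells, 11.42, 11.40 and 11.40 in CHIR + XAV cells, and 11.28, 11.19 and 11.16 in NT cells. Both groups with CHIR99021 stood above both groups without it, and CHIR and CHIR + XAV cells overlapped. The change of Nop56 was 0.20 in CHIR against NT (SE 0.069, limma adjusted p = 0.292), 0.14 in CHIR + XAV against XAV (SE 0.069, limma adjusted p = 0.541) and 0.17 in the CHIR main effect (SE 0.048, limma adjusted p = 0.103). Nop58 averaged 11.11 ± 0.067 in CHIR, 11.04 ± 0.16 in XAV, 11.17 ± 0.036 in CHIR + XAV and 11.08 ± 0.034 in NT cells (SD, n = 3 each), with overlap between CHIR and NT arrays.

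Fbl, fibrillarin, the methyltransferase of the same particles, gave the largest CHIR against NT difference of the members but also wide scatter. Its arrays read 10.53, 10.46 and 10.03 in CHIR cells, 10.14, 10.30 and 10.01 in XAV cells, 10.20, 9.85 and 10.07 in CHIR + XAV cells, and 10.21, 10.00 and 9.92 in NT cells. CHIR replicate 3 lay among the NT arrays, so the groups overlapped. The difference was 0.30 (SE 0.13, limma adjusted p = 0.417) and became 0.20 without CHIR replicate 1 and 0.45 without CHIR replicate 3. A further Fbl probe showed a difference of -0.00058 in the same comparison, so the 2 probes disagreed. Fbl was also the only member with an unadjusted p under 0.05 in the interaction, the CHIR change with XAV939 minus that without it, at -0.41 (SE 0.18, limma adjusted p = 0.965).

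Dkc1, dyskerin, the pseudouridine synthase of box H/ACA snoRNPs, had 11.24, 11.43 and 11.23 in CHIR cells, 11.10, 10.98 and 11.07 in XAV cells, 11.12, 10.95 and 11.16 in CHIR + XAV cells, and 11.17, 11.13 and 11.09 in NT cells. The CHIR arrays lay above those of each other group. Dkc1 differed by -0.23 in CHIR + XAV against CHIR (SE 0.080, limma adjusted p = 0.332), by 0.17 in CHIR against NT (SE 0.080, limma adjusted p = 0.483) and by -0.15 in the XAV main effect, the 6 arrays with XAV939 against the 6 without (SE 0.056, limma adjusted p = 0.185). Without CHIR replicate 2 the difference from NT was 0.11. The snoRNP chaperone Nolc1 had a CHIR main effect of 0.020 and Rrp9, a protein of the U3 snoRNP, one of -0.047. Of the 6 snoRNP genes, 5 had a CHIR main effect above 0, with a median of 0.087.

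The 12 small subunit factors held the member with the smallest p in 4 of 8 comparisons. Utp15 belongs to the subcomplex that starts the small subunit processome on the nascent precursor, a role known from yeast and human cells. It had 9.36, 9.46 and 9.42 in CHIR cells, 9.28, 8.96 and 9.08 in XAV cells, 9.35, 9.33 and 9.35 in CHIR + XAV cells, and 9.25, 9.13 and 9.25 in NT cells. All 6 arrays with CHIR99021 were above all 6 without it, and XAV replicate 2 was the lowest. The CHIR main effect of Utp15 was 0.22 (SE 0.058, 95% interval 0.10 to 0.35, limma adjusted p = 0.0678), the smallest p of any member there. The difference was 0.21 in CHIR against NT (SE 0.082, limma adjusted p = 0.369) and 0.24 in CHIR + XAV against XAV (SE 0.082, limma adjusted p = 0.340).

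Tsr1, a GTPase-like factor that stays on the late small subunit in the cytoplasm in yeast, had 9.98, 10.13 and 10.06 in CHIR cells, 9.87, 9.88 and 9.82 in XAV cells, 10.03, 10.04 and 10.14 in CHIR + XAV cells, and 9.91, 9.93 and 9.96 in NT cells. Here too both groups with CHIR99021 cleared both groups without it. The CHIR main effect of Tsr1 was 0.17 (SE 0.049, limma adjusted p = 0.112), and in CHIR + XAV against XAV its difference of 0.21 had the smallest p of the members (SE 0.069, limma adjusted p = 0.306).

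**Figure D3:**
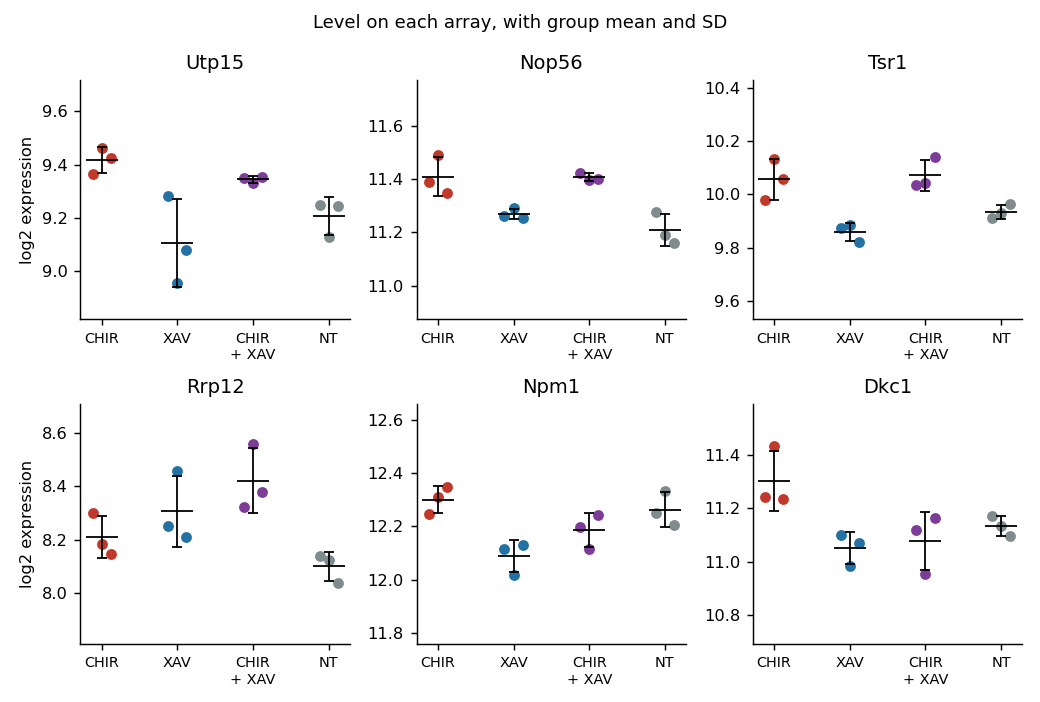
Level (log2 expression) on each array of 6 ribosome biogenesis genes, with the group mean (long bar) and SD (error bar, n = 3) for CHIR, XAV, CHIR + XAV and NT cells. Utp15, Nop56 and Tsr1 are higher on every array with CHIR99021 than on any without it, Rrp12 is lowest in NT cells, Npm1 has its lowest mean in XAV cells, and Dkc1 is highest in CHIR cells.

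Rrp12, an export factor of ribosomal subunits first described in yeast, was lowest in NT cells. It had 8.30, 8.18 and 8.14 in CHIR cells, 8.25, 8.46 and 8.21 in XAV cells, 8.32, 8.56 and 8.38 in CHIR + XAV cells, and 8.14, 8.12 and 8.04 in NT cells. Every treated array was above every NT array, and CHIR + XAV arrays were above CHIR arrays as well. Between CHIR + XAV and NT cells Rrp12 differed by 0.32 (SE 0.086, 95% interval 0.14 to 0.50, limma adjusted p = 0.0712). It differed by 0.21 in XAV against NT (SE 0.086, limma adjusted p = 0.397), in CHIR + XAV against CHIR (SE 0.086, limma adjusted p = 0.397) and in the XAV main effect (SE 0.061, limma adjusted p = 0.113), the smallest p of the members in the XAV main effect.

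Utp20, a very large scaffold protein of the processome, was also lowest in NT cells, with 9.98, 10.03 and 10.05 in CHIR cells, 10.07, 10.10 and 9.97 in XAV cells, 10.08, 10.07 and 10.04 in CHIR + XAV cells, and 9.85, 9.95 and 9.92 in NT cells. The treated groups overlapped with each other and none with NT. Its difference from NT was 0.15 in CHIR + XAV cells (SE 0.068, limma adjusted p = 0.234) and 0.14 in XAV cells (SE 0.068, limma adjusted p = 0.471). Wdr75, like Utp15 a protein of the early processome, had 10.71, 10.80 and 10.73 in CHIR cells, 10.64, 10.47 and 10.65 in XAV cells, 10.60, 10.62 and 10.58 in CHIR + XAV cells, and 10.62, 10.67 and 10.65 in NT cells. Its CHIR arrays were above all others, and the difference was -0.15 in CHIR + XAV against CHIR (SE 0.071, limma adjusted p = 0.456). Wdr43, of the same early complex, averaged 11.09 ± 0.063 in CHIR, 11.00 ± 0.016 in XAV, 11.06 ± 0.011 in CHIR + XAV and 10.98 ± 0.026 in NT cells (SD, n = 3 each). The other 6 small subunit factors, Utp4, Utp18, Heatr1, Ltv1, Nop14 and Noc4l, had CHIR main effects between -0.0022 for Noc4l and 0.12 for Utp18. Over the 12 genes the median CHIR main effect was 0.061, with 11 above 0.

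Large subunit factors had CHIR main effects above 0 in 12 of 12 measured genes, with a median of 0.067. Gnl3, nucleostemin, a nucleolar GTPase abundant in stem cells, had 10.43, 10.47 and 10.51 in CHIR cells, 10.30, 10.14 and 10.43 in XAV cells, 10.48, 10.47 and 10.48 in CHIR + XAV cells, and 10.36, 10.40 and 10.29 in NT cells. CHIR + XAV arrays exceeded all arrays without CHIR99021, and the lowest CHIR array was just above the highest XAV array. The CHIR main effect of Gnl3 was 0.15 (SE 0.054, limma adjusted p = 0.194), and in CHIR + XAV against XAV the difference was 0.19 (SE 0.077, limma adjusted p = 0.448), or 0.11 without XAV replicate 2. Nip7, which joins the large subunit precursor, had 7.32, 7.36 and 7.49 in CHIR cells, 7.10, 7.01 and 7.20 in XAV cells, 7.29, 7.37 and 7.23 in CHIR + XAV cells, and 7.06, 7.39 and 7.20 in NT cells. NT replicate 2 lay among the CHIR arrays, and the CHIR main effect was 0.19 (SE 0.063, limma adjusted p = 0.169).

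Rrs1, which recruits an early ribosomal protein complex to the large subunit in yeast, had 8.90, 8.87 and 9.10 in CHIR cells, 8.68, 8.13 and 8.86 in XAV cells, 8.86, 9.07 and 8.98 in CHIR + XAV cells, and 8.98, 8.65 and 8.82 in NT cells. It had the widest XAV group of the members, because XAV replicate 2 read far below the other XAV arrays. The CHIR + XAV against XAV difference was 0.42 (SE 0.14, limma adjusted p = 0.337) and 0.20 without XAV replicate 2, and its interaction of 0.27 became 0.062 without that array. Ebna1bp2, a nucleolar assembly scaffold, had 8.60, 8.96 and 8.55 in CHIR cells, 8.55, 8.57 and 8.67 in XAV cells, 8.68, 8.48 and 8.40 in CHIR + XAV cells, and 8.43, 8.52 and 8.53 in NT cells. A single array, CHIR replicate 2, stood above the rest. The interaction of Ebna1bp2 was -0.29 (SE 0.14, limma adjusted p = 0.965), and -0.16 without that array.

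The 3 proteins of the PeBoW complex, which processes the large subunit RNA, showed small differences. Pes1 had a CHIR main effect of 0.066, Bop1 of 0.027 and Wdr12 of 0.0027. The further Wdr12 probe gave 0.16 for the same effect and 0.18 in CHIR against NT, where the probe used gave -0.025, so the value for Wdr12 depends on the probe. Nop2, a methyltransferase of the large subunit RNA, averaged 10.03 ± 0.034 in CHIR, 9.93 ± 0.065 in XAV, 9.95 ± 0.16 in CHIR + XAV and 9.91 ± 0.077 in NT cells (SD, n = 3 each). Brix1, Noc3l, Mrto4 and Nop16, further assembly factors of this subunit, had CHIR main effects from 0.039 for Nop16 to 0.097 for Brix1.

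Of the abundant nucleolar proteins that act at several steps, Npm1 differed most with XAV939. Npm1, nucleophosmin, a histone and ribosome chaperone that forms the outer layer of the nucleolus, had 12.24, 12.31 and 12.35 in CHIR cells, 12.12, 12.02 and 12.13 in XAV cells, 12.20, 12.12 and 12.24 in CHIR + XAV cells, and 12.25, 12.33 and 12.20 in NT cells. XAV arrays lay below all NT and all CHIR arrays but overlapped with CHIR + XAV. Its difference was -0.18 in XAV against NT (SE 0.071, limma adjusted p = 0.384) and -0.14 in the XAV main effect (SE 0.051, limma adjusted p = 0.167). Ncl, nucleolin, averaged 12.13 ± 0.050 in CHIR, 12.05 ± 0.079 in XAV, 12.04 ± 0.083 in CHIR + XAV and 12.08 ± 0.058 in NT cells (SD, n = 3 each). Ddx21, an RNA helicase of the nucleolus, averaged 11.25 ± 0.038 in CHIR, 11.22 ± 0.044 in XAV, 11.21 ± 0.10 in CHIR + XAV and 11.15 ± 0.075 in NT cells (SD, n = 3 each).

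**Figure D4:**
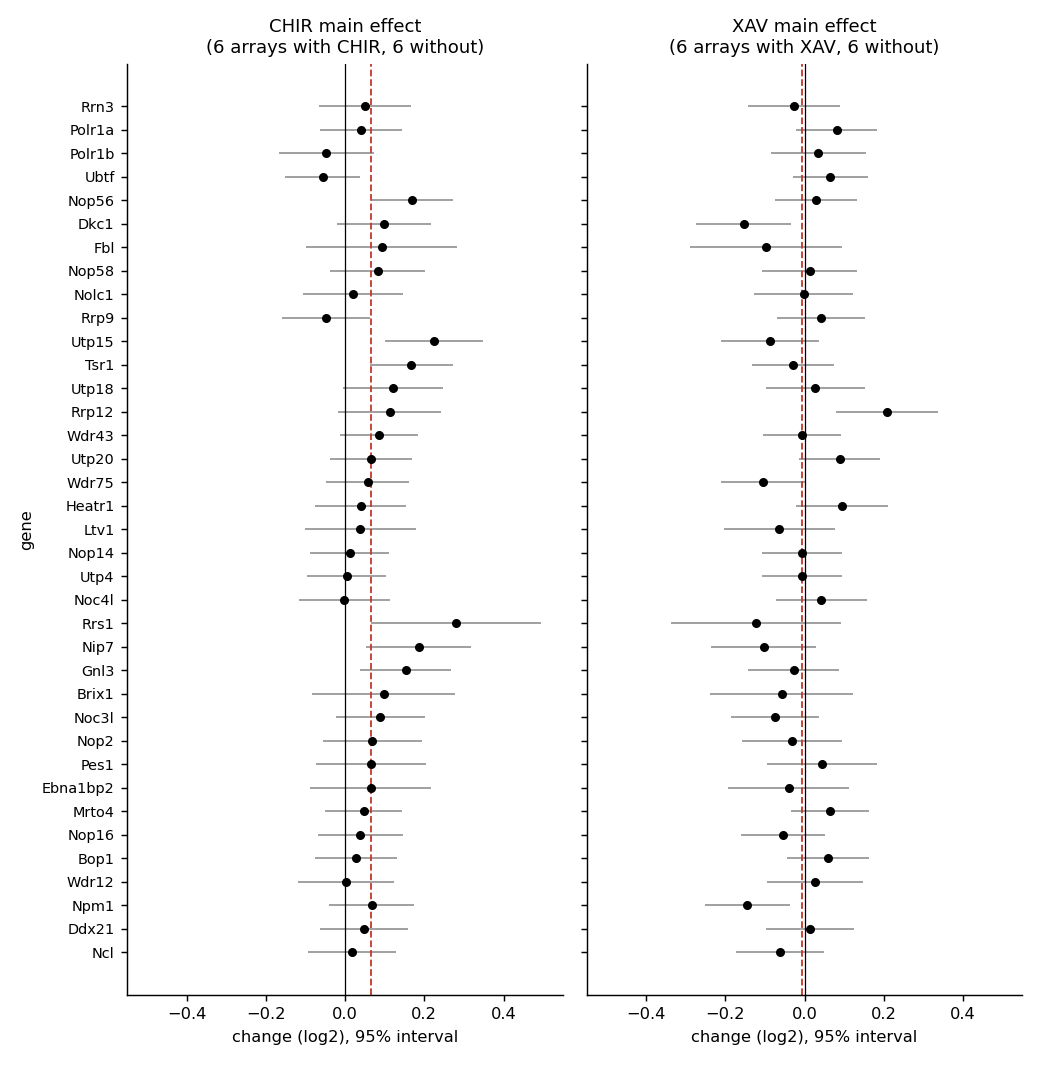
CHIR main effect (left) and XAV main effect (right) of each of the 37 genes as a log2 change, each taken as 6 arrays with the compound against 6 without, with its 95% interval (bars), and the members' median (dashed line). The left panel is shifted to the right of 0 in 33 of 37 genes, while the right panel has 16 of 37 above 0.

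With XAV939 alone the members' changes were split about evenly around 0. In XAV against NT cells no member was called, as was no gene at all (0% of 19938), and 3 members had an unadjusted p under 0.05, 2 higher and 1 lower, beside 11.2% of all genes and 10.6% of genes of like brightness. Their median change was 0.0040 with 19 of 37 above 0, beside 50.2% of all genes, a median of 0.041 and 65.8% above 0 among genes of like brightness. In the brightest of the 10 bins, which held 28 members, the median of all genes was 0.012. All 3 XAV arrays lay above all 3 NT arrays in 7 members, beside 9.48% of all genes, and below in 2, Tsr1 and Npm1, beside 8.17%. Among genes of like brightness 16.8% were separated upwards and 3.44% downwards, so the members' 18.9% and 5.41% were close to that background. In the XAV main effect no member was called, where 0.331% of all genes were, and 3 members had an unadjusted p under 0.05, beside 16.9% of all genes and 17.5% of genes of like brightness. The members' median was -0.0069 with 16 above 0, beside 48.9% of all genes, and 0.034 and 65.4% for genes of like brightness. The median of all genes in the brightest bin was 0.0045. No member had its 6 arrays with XAV939 all above the 6 without it, beside 1.01% of all genes and 1.85% of genes of like brightness, or all below, beside 0.517% and 0.117%. The lowest end of any member's interval in XAV against NT was -0.56, for Rrs1, and the highest end of any was 0.39, for Rrp12. With 3 arrays a group, differences within a member's own interval were not resolved.

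Between CHIR + XAV and NT cells no member was called, where 1.13% of all genes were, and 3 members had an unadjusted p under 0.05, all higher, beside 18.7% of all genes in either direction and 10.0% higher, and 17.6% higher among genes of like brightness. The members' median was 0.039 with 27 above 0, beside 47.4% of all genes, but genes of like brightness had a median of 0.068 with 72.2% above 0. After subtraction of the median change of genes in the same brightness bin, the members' median was 0.00025. All 3 CHIR + XAV arrays lay above all 3 NT arrays in 11 members, beside 13.0% of all genes, and below in 0, beside 12.0%. Genes of like brightness were separated upwards in 24.4% and downwards in 4.08%, so the members' 29.7% upwards was close to that background. In CHIR against NT the same separation held in 13 members above, beside 8.09% of all genes, and 2 below, Ubtf and Rrp9, beside 8.25%. Of genes of like brightness 15.3% were separated upwards there, beside 35.1% of members, and 5.10% downwards, beside 5.41% of members. CHIR + XAV against NT and CHIR against NT share the NT arrays, so these counts are not independent.

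Between CHIR + XAV and CHIR cells the members' differences lay about evenly on both sides of 0. There no member was called, where 0.0251% of all genes were, and 4 members had an unadjusted p under 0.05, 1 higher and 3 lower, beside 11.0% of all genes. Among genes of like brightness 8.76% were higher and 2.27% lower at that p. The members' median was -0.0016, with 18 above 0 (48.6%), beside 48.3% of all genes. Genes of like brightness, which include many dimmer genes, had a median of 0.030 with 60.6% above 0. In the brightest of the 10 bins, which held 28 members, the median of all genes was 0.00095, close to that of the members. Arrays were separated upwards in 3 members, Ubtf, Rrp12 and Bop1, beside 8.92% of all genes, and downwards in 4, Dkc1, Utp15, Wdr75 and Npm1, beside 7.18%. Of genes of like brightness 13.7% were separated upwards, beside 8.11% of members, and 3.36% downwards, beside 10.8% of members. In the interaction no member and no gene was called (0%), and 1 member had an unadjusted p under 0.05, beside 4.94% of all genes. Whether XAV939 alters the CHIR99021 change of these genes was therefore not resolved, with a median interaction of -0.020 over the members and 17 above 0 (45.9%), beside 50.6% of all genes, and a median of -0.0077 and 47.6% above 0 for genes of like brightness.

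The transcript of Myc itself was lower with CHIR99021. Myc had 9.47, 9.28 and 9.44 in CHIR cells, 9.80, 9.96 and 9.76 in XAV cells, 9.40, 9.48 and 9.21 in CHIR + XAV cells, and 9.70, 9.74 and 9.68 in NT cells. Every array with CHIR99021 was below every array without it, and Myc fell by 0.40 in the CHIR main effect (change -0.40, SE 0.061, limma adjusted p = 0.00237). It was also called lower in CHIR + XAV against XAV, at -0.48 (SE 0.086, limma adjusted p = 0.0238), a call lost on leaving out XAV replicate 1 or 2 or CHIR + XAV replicate 1 or 3, with limma adjusted p between 0.0651 and 0.130. It was not called in CHIR against NT (-0.31, SE 0.086, limma adjusted p = 0.153). Mnt, a repressor that competes with Myc for their partner Max, fell by 0.20 in the CHIR main effect (change -0.20, SE 0.046, limma adjusted p = 0.0379), a call lost on leaving out any 1 of the 12 arrays (limma adjusted p between 0.0599 and 0.0941). Mycn had a CHIR main effect of -0.20 (SE 0.073, limma adjusted p = 0.204). Of 12 genes of the Myc and Max network, 2 were called lower and 0 higher in that effect, with a median of -0.090. Arrays measure transcripts, and the Myc protein was not measured here.

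Promoter sequence was examined because Myc binds E-boxes and beta-catenin acts through TCF/LEF factors. RefSeq windows of assembly GRCm38.p6, 250 bases before to 50 after a gene's start, were matched for 32 of the 37 measured members. The E-box CACGTG, a palindrome that reads alike on both strands, occurred in 9 of 32 members (28.1%), compared with 13.3% of 4879 genes of like brightness and 8.09% of 27025 genes with a window. The 9 were Nop2, Utp4, Ltv1, Utp20, Pes1, Tsr1, Utp18, Rrn3 and Wdr43. The TCF/LEF core CTTTGAT, sought on both strands and not overlapping in letters with the E-box, occurred in 1 member, Noc4l (3.12%), compared with 3.12% of genes of like brightness and 4.29% of all genes with a window. The median CHIR main effect was 0.066 in members with an E-box, 9 of 9 above 0, and 0.046 in those with a window and no E-box, 19 of 23 above 0. A matching sequence is not a measured binding site. The windows of the 3 members with the smallest p in the CHIR main effect are printed first, then that of Rrn3, chosen after its sequence was seen because it holds 2 E-boxes, the most of any member. They lie at chr13:98262943-98263242 on the minus strand (Utp15), chr2:130274162-130274461 on the plus strand (Nop56), chr11:74897830-74898129 on the plus strand (Tsr1) and chr16:13780449-13780748 on the plus strand (Rrn3). Each is written 5′ to 3′ on the strand of the gene, in lower case, with E-boxes in capitals.
Utp15: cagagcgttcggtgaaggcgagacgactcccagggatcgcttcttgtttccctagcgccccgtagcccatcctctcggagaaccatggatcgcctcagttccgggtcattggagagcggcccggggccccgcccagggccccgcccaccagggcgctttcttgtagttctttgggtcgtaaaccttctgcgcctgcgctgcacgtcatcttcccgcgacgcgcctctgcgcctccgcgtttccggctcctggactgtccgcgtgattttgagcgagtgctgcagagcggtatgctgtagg
Nop56: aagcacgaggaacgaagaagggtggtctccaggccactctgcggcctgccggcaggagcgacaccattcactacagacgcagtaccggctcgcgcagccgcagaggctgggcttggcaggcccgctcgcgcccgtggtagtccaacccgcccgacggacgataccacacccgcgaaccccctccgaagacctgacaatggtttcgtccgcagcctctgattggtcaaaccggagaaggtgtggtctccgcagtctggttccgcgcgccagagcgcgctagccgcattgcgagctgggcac
Tsr1: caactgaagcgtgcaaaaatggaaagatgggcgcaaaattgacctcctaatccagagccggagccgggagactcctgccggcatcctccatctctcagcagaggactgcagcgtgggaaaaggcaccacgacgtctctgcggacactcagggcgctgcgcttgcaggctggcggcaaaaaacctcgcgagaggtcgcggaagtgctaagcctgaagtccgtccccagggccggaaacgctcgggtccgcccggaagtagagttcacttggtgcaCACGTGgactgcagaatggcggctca
Rrn3: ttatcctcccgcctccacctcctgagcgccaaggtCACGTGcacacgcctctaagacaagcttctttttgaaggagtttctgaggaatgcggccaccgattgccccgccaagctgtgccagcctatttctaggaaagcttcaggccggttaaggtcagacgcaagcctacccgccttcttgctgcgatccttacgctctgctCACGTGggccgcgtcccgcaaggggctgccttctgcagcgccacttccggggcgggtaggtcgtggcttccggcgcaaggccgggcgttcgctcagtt
Utp15 and Nop56 have no E-box in these windows. The E-box of Tsr1 begins at base 275, downstream of the start, and those of Rrn3 begin at bases 36 and 203, both upstream, counted from 1 at the 5′ end of the window.

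Related genes outside the 38 were summarised for comparison, from lists of known function. Of 96 other ribosome assembly factors measured, 78 (81.2%) were above 0 in CHIR against NT with a median of 0.085 and none was called. An unadjusted p under 0.05 was found for 8 (8.33%), all higher. Genes as bright as the members had 64.3% above 0 and 8.68% higher at that p, so the second share of the assembly factors was close to that background. With both compounds, against NT, 3 of the 96 (3.12%) were called higher and 0 lower, beside 1.66% of genes as bright as the members called in either direction. They were the RNA helicases Ddx51 (0.51, SE 0.089, limma adjusted p = 0.0169) and Ddx55 (0.39, SE 0.080, limma adjusted p = 0.0320) and Mdn1, the very large ATPase that strips factors from the large subunit (0.36, SE 0.076, limma adjusted p = 0.0356). Each of these 3 calls was lost on leaving out single arrays, that of Ddx51 without NT replicate 3 (limma adjusted p = 0.0953) or CHIR + XAV replicate 2 (0.0814), and those of Ddx55 and Mdn1 on leaving out any 1 of the 6 arrays compared. In the CHIR main effect, 2 of the 96 were called higher, Ddx55 (0.27, SE 0.056, limma adjusted p = 0.0214) and Ddx51 (0.27, SE 0.063, limma adjusted p = 0.0375). That share of 2.08% was close to the 2.03% of genes as bright as the members and 1.59% of all genes called in either direction. Of the 96, 80 were above 0 (83.3%, beside 67.8% of genes as bright as the members), with a median of 0.068. The call of Ddx55 was lost without NT replicate 3, CHIR replicate 1 or 2, XAV replicate 2 or CHIR + XAV replicate 3, and that of Ddx51 without 9 of the 12 arrays, with limma adjusted p up to 0.105. Of 29 other subunits and factors of RNA polymerases I and III, 26 were above 0 in CHIR against NT, with a median of 0.095, and none was called, while 5 higher (17.2%) and 1 lower had an unadjusted p under 0.05.

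**Figure D5:**
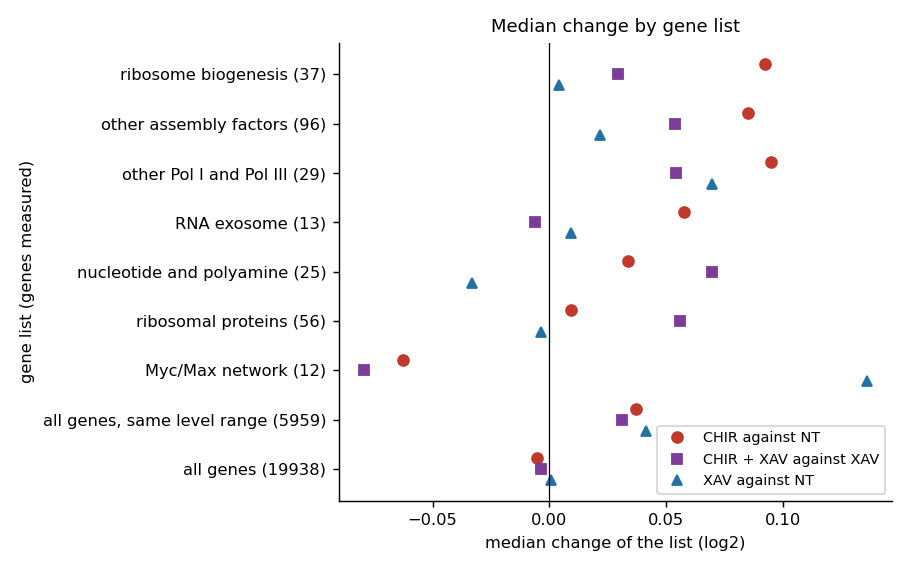
Median change (log2) of each gene list, with the number of genes measured in brackets, in CHIR against NT (circles), CHIR + XAV against XAV (squares) and XAV against NT (triangles). In CHIR against NT the ribosome biogenesis genes (0.092), the other assembly factors (0.085) and the other polymerase I and III genes (0.095) lie to the right of all genes of the same level range (0.037), and ribosomal protein genes (0.0092) do not.

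Genes of the proteins of the ribosome itself were summarised in the same way. Of 56 ribosomal protein genes measured, 32 were above 0 in CHIR against NT, with a median of 0.0092, none was called and 1 (1.79%) had an unadjusted p under 0.05, which was lower. Their median in CHIR + XAV against XAV was 0.056 with 45 above 0 (80.4%), beside 62.3% of genes of like brightness and 48.6% of all genes. None was called and 4 (7.14%) had an unadjusted p under 0.05, all higher. That share was close to the 7.45% of genes of like brightness higher at that p, beside 4.92% of all genes. Of 13 genes of the RNA exosome, which trims precursor RNA, 9 were above 0 in CHIR against NT with a median of 0.058, none was called and 1 had an unadjusted p under 0.05. These lists hold genes of different brightness, and the differences between lists were not tested.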

How the data were processed

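Biotin-labelled total RNA of 12 samples was read on Affymetrix arrays, per the labels' protocols. The deposited values are log2 expression per probe; the base was inferred from their range, 2.52 to 14.3, since no header states it. Per the submitters' processing notes the software was Partek, version unstated, and background correction, normalization and summary method are not given in the sources used here. No further normalization was applied. Arrays carry no read depth, and 3 arrays per group limit the precision.

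Of 35399 probes, 21789 had 1 gene symbol in the platform annotation, 1621 several and 11989 none. The probe with the highest mean stood for each of 19938 genes. Identifiers were updated through RefSeq (GRCm38.p6). Group means were fitted to all genes and all 12 arrays with limma 3.58.1 (lmFit, eBayes; statmod 1.5.0, R 4.3.3), with 8 residual and 8.03 prior degrees of freedom. Each of 8 two-sided contrasts had Benjamini-Hochberg adjustment over all genes, and called means an adjusted p under 0.05. Intervals are 95% intervals from that fit. The test was tried on simulated data.

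The members and the lists were chosen with earlier results of these data known, so patterns already seen are no independent support. All 38 members were named, with full values for the 4 of smallest p per contrast and for members described by role; of other lists, up to 4 called genes or else the one of smallest p, and always Axin2, Nodal, Myc and Mycn. Promoter windows are RefSeq's, with motifs sought by exact letters. Replicate numbers came from titles. They were not taken to pair the samples. The 18 same-numbered pairs correlated between -0.25 and 0.20 (median 0.011), and 6 of them exceeded 0.1. The 36 different-numbered pairs correlated between -0.30 and 0.33 (median -0.0053), and 8 of them exceeded 0.1. The alternatives were other normalizations, a filter on dim genes, the mean of probes, other eBayes settings, array weights, the SD of each array as a covariate, a replicate block, fits to the compared groups and leaving out arrays. Plots used matplotlib 3.10.9 under Python 3.11.15.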

Additional observations from a re-analysis of the deposited data

How the results depend on the processing

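Under every alternative tried, the members' median change moved by less than the SD of the difference in median level, in all 8 contrasts. Except in CHIR against NT and the CHIR main effect, that SD was larger than the median change itself. A loss of the whole change would pass there, so stability was not shown in those contrasts. With cyclic loess the median in CHIR + XAV against XAV went from 0.029 to -8.4e-05. After subtraction of the median of genes in the same brightness bin, that in CHIR + XAV against NT went from 0.039 to 0.00025. In CHIR against NT the members' median change ranged from 0.061, after subtraction of the median of genes in the same brightness bin, to 0.13 with median centring. In the CHIR main effect it ranged from 0.030 to 0.088 under the same settings. The lower value was below the SD of 0.0363 for that contrast, so stability was not shown there either. Counts of members called were 0 in every contrast and setting except these. In the CHIR main effect, median centring called 1 member, Utp15 (limma adjusted p = 0.0418). A filter at the median expression, which tests fewer genes, called 2, Utp15 (0.0363) and Nop56 (0.0487), and eBayes with trend and robust settings called 2, Nop56 (0.0273) and Utp15 (0.0397). Leaving out 1 array gave 0 to 1 there, the 1 being Utp15 without XAV replicate 1 (limma adjusted p = 0.0261). Between CHIR + XAV and NT cells, the filter called 1 member, Rrp12 (limma adjusted p = 0.0416), and array weights called 1, Rrp12 (0.0424). The cause of these shifts was not tested. With the replicate block 0 members were called in any contrast, and the arrays share only a number: 13 of 36 best matches between groups had the same one.

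The counts over all genes, which set the background, depended more on the processing. In CHIR + XAV against NT, 225 genes were called (163 higher, 62 lower), 103 with quantile normalization (59 and 44), 104 with cyclic loess (55 and 49), 348 with median centring (287 and 61), 528 with the filter (446 and 82), 550 with array weights (382 and 168), 168 with the replicate block, 20 with the SD of each array as a covariate and 12 without NT replicate 3 and XAV replicate 2 together, and 10 to 284 on leaving out 1 array. In CHIR against NT the 84 calls ranged from 42 to 119, or 34 to 97 on leaving out 1 array. In the CHIR main effect the 318 calls ranged from 178 to 420 and split 155 higher to 163 lower, but 233 to 128 with median centring and 134 to 205 with quantile normalization. The 47 calls in CHIR + XAV against XAV ranged from 21 to 70, in the XAV main effect the 66 calls from 2 to 255, in CHIR + XAV against CHIR the 5 calls from 0 to 10, in XAV against NT the 0 calls from 0 to 8, and in the interaction the 0 calls from 0 to 1. Changes of the size seen in the members are near the SE of a difference of 3 against 3 arrays, which had a median of 0.077 over the members.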

Other observations

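Genes linked to growth and to nucleolar stress outside the pathway gave few calls. Plk2, a kinase and target of p53, was called higher in CHIR than in NT cells, by 0.50 (SE 0.071, limma adjusted p = 0.00305), and in the CHIR main effect, by 0.39 (SE 0.050, limma adjusted p = 0.000480). No other of the 12 measured genes of the p53 and nucleolar stress list was called in these 2 comparisons. Snhg5, a host gene of small nucleolar RNAs, was called higher in the CHIR main effect, by 0.41 (SE 0.078, limma adjusted p = 0.0114), 1 of 5 measured host genes. That call was lost with the SD of each array as a covariate (limma adjusted p = 0.0693) and without NT replicate 3 and XAV replicate 2 together (limma adjusted p = 0.0616).

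Of 25 measured genes of nucleotide and polyamine synthesis, 16 were above 0 in CHIR against NT with a median of 0.033, none was called and 0 had an unadjusted p under 0.05. In CHIR + XAV against NT, Cad, the enzyme that starts pyrimidine synthesis, differed by 0.34 (SE 0.096, limma adjusted p = 0.0792). Among the marker lists, Tbx3 (0.40, SE 0.078, limma adjusted p = 0.0130) and Klf2 (0.21, SE 0.047, limma adjusted p = 0.0380) of naive pluripotency were called higher in the CHIR main effect. Their means of 5.05 (Tbx3) and 5.54 (Klf2) were not far above the background level of 4.94. Of the 10 naive markers, 6 were above 0 and 4 below in that effect. At an unadjusted p under 0.05, 5 of them were higher and 2 lower, so the list did not move in 1 direction. The neural marker Pax6 was called lower in the CHIR main effect, by 0.25 (change -0.25, SE 0.057, limma adjusted p = 0.0336). Its mean of 5.30 was also not far above the background level. Of the 7 neural markers, 42.9% were above 0 in that effect. At an unadjusted p under 0.05, 14.3% of them were higher and 28.6% lower, so this list was mixed too.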
